A study of Mus musculus with 2 samples.

Results

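The genes described here were 9 secreted CC chemokines, Ccl2, Ccl3, Ccl4, Ccl5, Ccl6, Ccl7, Ccl8, Ccl9 and Ccl12, and the receptor Ccr2. They were taken by symbol, and 10 of 10 were found among the 31253 features. Cells came from infarcted mouse brain tissue 3 days after transient middle cerebral artery occlusion (tMCAO), a stroke model in which blood flow to a large part of one hemisphere is blocked and then restored. They were profiled on the BD Rhapsody single-cell system in 1 library of mice with a conditional knockout of Hilpda (cKO) and 1 library of floxed mice (flox), which the design text calls WT. Both libraries were of injured brain, so neither gives the level in uninjured tissue. Strain, sex and age, the number of pooled animals, the promoter that drives the recombinase and the deleted part of Hilpda were not given in the sources used here.

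CC chemokines are small proteins with a pair of adjacent cysteines that draw leukocytes along a gradient by binding G protein-coupled receptors. Ccr2 is carried by inflammatory monocytes, and Ccl2, Ccl7 and Ccl12, members of the monocyte chemoattractant (MCP) group, are its ligands in mouse. Ccl3 and Ccl4, the macrophage inflammatory proteins, and Ccl5 act on other CC receptors of monocytes, macrophages and T cells. Microglia are the resident macrophages of the brain tissue, border-associated macrophages line its vessels and membranes, and both are known sources of chemokines after ischaemia.

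The 9 ligands share the adjacent cysteines but no long run of bases, which matters for counting because reads of near-identical genes can be split wrongly. The coding sequence around those cysteines is shown from GENCODE vM21 for 8 of the ligands, 5′ to 3′, with the 2 adjacent cysteine codons in capitals and 12 bases on each side.
Ccl2: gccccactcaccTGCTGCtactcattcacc
Ccl7: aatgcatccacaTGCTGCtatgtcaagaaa
Ccl8: gctccagtcaccTGCTGCtttcatgtacta
Ccl12: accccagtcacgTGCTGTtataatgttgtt
Ccl4: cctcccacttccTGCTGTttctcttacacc
Ccl5: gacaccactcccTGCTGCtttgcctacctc
Ccl6: acttcttcagacTGCTGCttctcttatgcc
Ccl9: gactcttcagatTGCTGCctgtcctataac
The pair lies at codon 32 in Ccl8 and at codon 57 in Ccl9, the extremes of the 9 genes. Over the aligned coding bases, Ccl8 and Ccl12 were the most alike pair at 70.8% identity, followed by Ccl6 and Ccl9 at 70.6% and Ccl3 and Ccl4 at 70.0%. In the last 500 bases of the transcripts no run longer than 15 bases was shared by any pair, the longest being that of Ccl2 and Ccl12.

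All 9 ligand genes lie on mouse chromosome 11 (GRCm38, the mm10 build) in 2 blocks. The MCP block runs from 82035571 to 82116799 (81.2 kb) in the order Ccl2, Ccl7, Ccl12, Ccl8, all on the plus strand. The second block runs from 83525778 to 83664683 (139 kb) and holds Ccl5, Ccl9, Ccl6 and Ccl3 on the minus strand and Ccl4 on the plus strand. The blocks are 1409 kb apart. Ccr2 lies on chromosome 9 from 124101950 to 124113557, plus strand. Opposite-strand models overlap Ccl2 (Gm17268, 0 UMIs here) and Ccl6 (E230016K23Rik, not among the features).

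Promoter sequence was matched for 6 of the 10 genes in RefSeq (GRCm38.p6). Ccl8 and Ccl12 are shown because they are neighbours, were the most alike in coding sequence and were both highest in border-associated macrophage-like cells. The lines give the 80 bases before the annotated start, 5′ to 3′ on the plus strand, with TATAAA in capitals.
Ccl8 at chr11:82115105-82115184: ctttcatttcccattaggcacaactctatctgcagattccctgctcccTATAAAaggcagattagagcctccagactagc
Ccl12 at chr11:82101765-82101844: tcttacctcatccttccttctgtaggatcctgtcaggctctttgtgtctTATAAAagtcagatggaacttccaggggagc
TATAAA, searched on both strands, starts 32 bases before the start of Ccl8 and 31 before that of Ccl12. Among the other 4 promoters, Ccl9 has 3 hits and Ccl3, Ccl6 and Ccr2 have none in 250 bases. The Ccl9 hits begin 224, 94 and 92 bases before the start, and those at 94 and 92 overlap on opposite strands. It occurs in 13% of 27025 promoters of that length. The kappaB motif occurred in the 250 bases of Ccl9 alone among the 6, against 7.01% of all promoters.

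The cKO library held 7382 barcodes and 70665440 UMIs, and the flox library 8593 barcodes and 67864602 UMIs, at medians of 8513 UMIs in cKO and 6852 UMIs in flox. After filtering, 6982 cKO and 8057 flox cells were analysed, and 56 barcodes were shared by the libraries (52 of them kept in cKO and 53 in flox). They formed 29 clusters without use of the 10 genes, of which 28 were named from marker genes into 16 classes. Names carry "-like" for that reason. The level of a gene is given in CPM, its UMIs in a class of 1 library divided by all UMIs of those cells and scaled up in the usual way. Each interval is a 95% interval that covers counting error only, since each group had 1 library. Genotype and library preparation therefore cannot be told apart, and no test was made. Hilpda stood at 214 CPM in cKO and 273 CPM in flox over all cells. It was lower in the cKO library in monocyte or macrophage-like cells (268 CPM in cKO, 494 CPM in flox) but higher there in microglia-like cells (222 CPM in cKO, 102 CPM in flox). Neutrophil-like cells had 32.8 CPM (14 UMIs) in cKO and 191 CPM (50 UMIs) in flox. Border-associated macrophage-like cells had 130 CPM in cKO and 72.5 CPM in flox, and dendritic cell-like cells 163 CPM in cKO and 124 CPM in flox. The interval of the ratio included 0 in endothelial cell-like and oligodendrocyte-like cells. The counted part of the transcript may lie outside the deleted part, so Hilpda does not check the labels, and cKO and flox name the libraries as labelled.

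Microglia-like cells had 12 of 12 microglial markers at 10 CPM or more in both libraries, with a summed level of 15568 CPM in cKO and 17684 CPM in flox. Their 13 monocyte or macrophage markers summed to 825 CPM in cKO and 803 CPM in flox. Monocyte or macrophage-like cells, which include cells of blood origin, had 13 of 13 of their own markers, at 9453 CPM in cKO and 8149 CPM in flox, beside microglial markers at 2786 CPM in cKO and 3069 CPM in flox. In border-associated macrophage-like cells the 8 own markers (Mrc1, Lyve1, Cd163 and others) summed to 10024 CPM in cKO and 10266 CPM in flox, beside microglial markers at 4066 CPM in cKO and 3529 CPM in flox. T and NK cell markers were at 2.88 CPM or less in sum in each of these 3 classes. Cluster 5 (358 cKO and 445 flox cells, led by H2-Aa, Cd74, Ccr2 and Il1b) stayed unnamed because it carried more dendritic cell than macrophage markers among its leading genes.

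Of the 10 genes, 6 had their highest level in border-associated macrophage-like cells in both libraries, among the 11 named classes with at least 50 cells in each. These were Ccl2, Ccl7, Ccl8, Ccl12, Ccl6 and Ccl9. Ccl3 and Ccl4 were highest in microglia-like cells, and Ccl5 and Ccr2 in dendritic cell-like cells. The top class was thus the same in both libraries for 10 of 10 genes. The rank correlation of the 11 class levels between the libraries, given as a description, ran from 0.59 for Ccr2 to 0.96 for Ccl2.

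**Figure D1:**
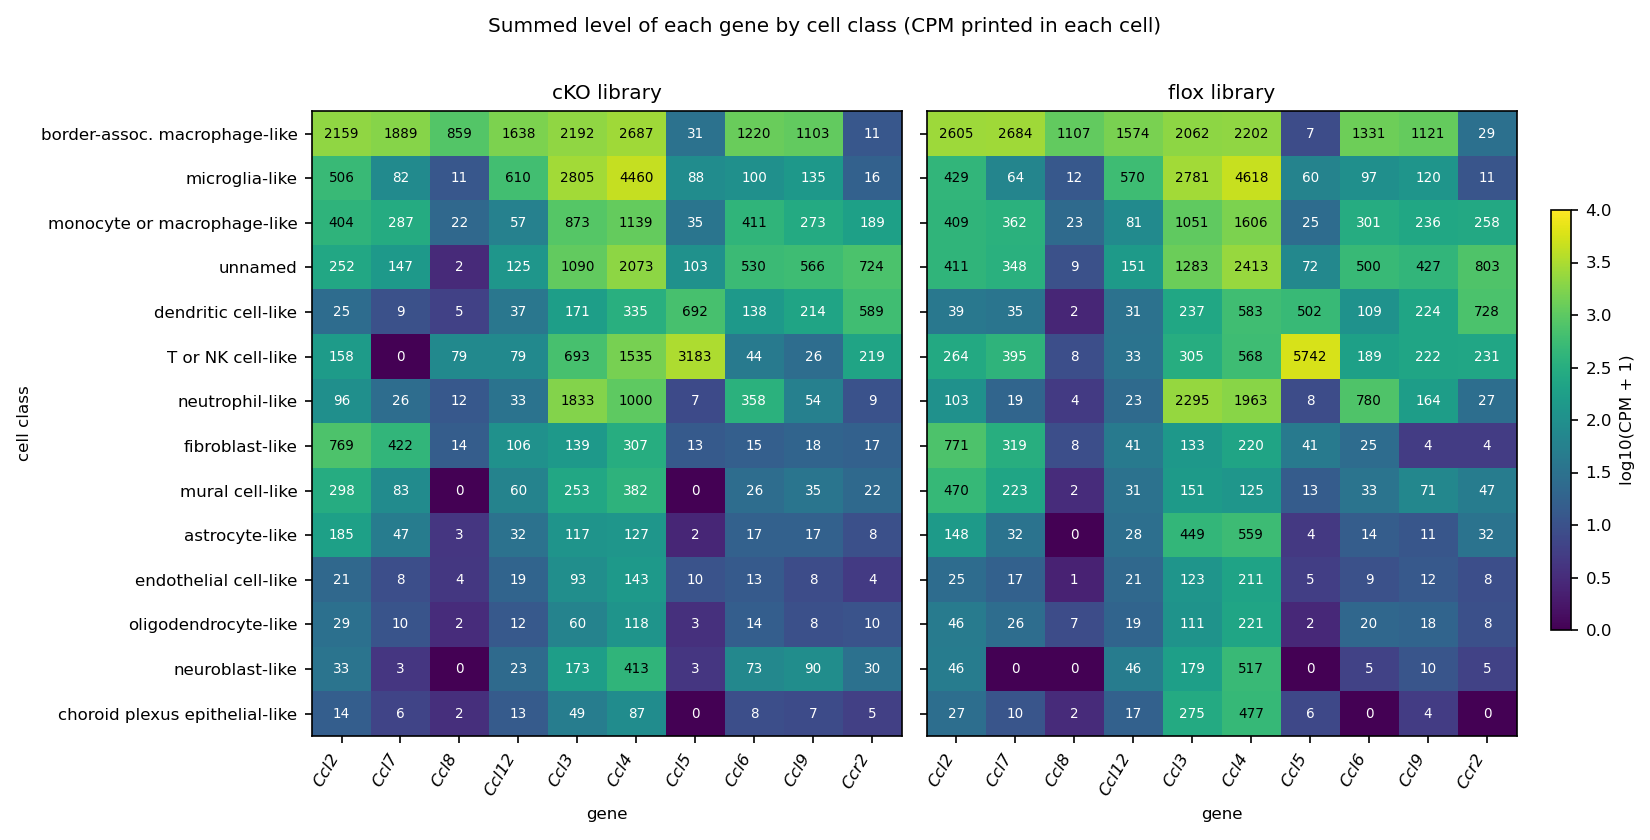
Summed level of each gene (columns) in each cell class (rows) in CPM, with the cKO library in the left panel and the flox library in the right panel; colour is log10(CPM + 1) and the number is the CPM. The border-associated macrophage-like row holds the highest named-class values of Ccl2, Ccl7, Ccl8 and Ccl12, while Ccl3 and Ccl4 peak in the microglia-like row and Ccl5 in T or NK cell-like cells, a class with 42 cKO and 64 flox cells.

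Ccl2, the main monocyte attractant of the MCP group, stood in border-associated macrophage-like cells at 2159 CPM (2096 to 2224) in cKO and 2605 CPM (2529 to 2682) in flox. That was 4.27 times the microglia-like level in cKO and 6.07 times in flox. Microglia-like cells had 506 CPM in cKO and 429 CPM in flox, and monocyte or macrophage-like cells 404 CPM in cKO and 409 CPM in flox. Ccl2 UMIs were also found in classes outside the leukocytes. Fibroblast-like cells, of which there were 101 in cKO but 34 in flox, had 769 CPM in cKO and 771 CPM in flox, and mural cell-like cells, the pericytes and smooth muscle of vessels, had 298 CPM in cKO and 470 CPM in flox. Astrocyte-like cells had 185 CPM in cKO and 148 CPM in flox. In flox the intervals of mural cell-like and microglia-like cells touched, so these neighbours in the order did not differ beyond counting error there.

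Ccl7, which acts with Ccl2 in calling monocytes out of the bone marrow, was more unevenly spread. Border-associated macrophage-like cells had 1889 CPM (1830 to 1950) in cKO and 2684 CPM (2608 to 2762) in flox, against 82.4 CPM in cKO and 64.0 CPM in flox in microglia-like cells. Monocyte or macrophage-like cells lay between, at 287 CPM in cKO and 362 CPM in flox. Fibroblast-like cells had 422 CPM in cKO and 319 CPM in flox. UMIs of both Ccl2 and Ccl7 were thus found in fibroblast-like and mural cell-like cells (Ccl7 at 83.0 CPM in cKO and 223 CPM in flox in the mural class). Both classes also held Ccl3 and Ccl4 UMIs. What part RNA of other cells had in their Ccl2 and Ccl7 levels was not tested.

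Ccl8, known in mouse as a ligand of Ccr8, was the most uneven of the MCP group. It stood in border-associated macrophage-like cells at 859 CPM (820 to 901) in cKO and 1107 CPM (1058 to 1158) in flox. The next class, monocyte or macrophage-like cells, had 21.7 CPM in cKO and 23.1 CPM in flox, which was 39.6 times lower in cKO and 47.9 times lower in flox. The border-associated class, with 183 cKO and 186 flox cells, held 65.0% of all Ccl8 UMIs of the cKO library and 66.5% of those of the flox library.

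Ccl12, a mouse ligand of Ccr2, was also high in microglia-like cells. Border-associated macrophage-like cells had 1638 CPM (1583 to 1694) in cKO and 1574 CPM (1516 to 1634) in flox, and microglia-like cells had 610 CPM (599 to 621) in cKO and 570 CPM (560 to 580) in flox. Monocyte or macrophage-like cells had only 57.1 CPM in cKO and 81.1 CPM in flox. The microglia-like level was 10.7 times the macrophage-like level in cKO and 7.02 times in flox. Microglia-like cells held 69.1% of the Ccl12 UMIs in cKO and 69.7% in flox.

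Ccl3, a ligand of Ccr1, reached 2805 CPM (2782 to 2828) in cKO and 2781 CPM (2759 to 2803) in flox in microglia-like cells. Border-associated macrophage-like cells had 2192 CPM in cKO and 2062 CPM in flox, neutrophil-like cells 1833 CPM (1707 to 1966) in cKO and 2295 CPM (2115 to 2487) in flox, and monocyte or macrophage-like cells 873 CPM in cKO and 1051 CPM in flox. In flox the neutrophil-like and border-associated intervals overlapped. Ccl4 had the same 4 leading classes, with 4460 CPM (4431 to 4488) in cKO and 4618 CPM (4590 to 4646) in flox in microglia-like cells. It stood at 2687 CPM in cKO and 2202 CPM in flox in border-associated macrophage-like cells, and at 1139 CPM in cKO and 1606 CPM in flox in monocyte or macrophage-like cells. Neutrophil-like cells had 1000 CPM (907 to 1099) in cKO and 1963 CPM (1796 to 2140) in flox.

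Ccl3 and Ccl4 UMIs were found in every named class, including choroid plexus epithelial cell-like cells, which make cerebrospinal fluid and are not known as a source of these chemokines. There Ccl3 stood at 49.0 CPM in cKO and 275 CPM in flox and Ccl4 at 86.7 CPM in cKO and 477 CPM in flox. Oligodendrocyte-like cells had Ccl4 at 118 CPM in cKO and 221 CPM in flox. Levels of this size in other classes cannot be read as expression. They were lower in the library labelled cKO in both of these classes. Mural cell-like cells went the other way, with Ccl3 at 253 CPM in cKO and 151 CPM in flox. Their Ccl4 was at 382 CPM in cKO and 125 CPM in flox.

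Ccl5, made by cytotoxic lymphocytes and activated antigen-presenting cells, came from other cells than the rest. T or NK cell-like cells had 3183 CPM in cKO (42 cells, 363 UMIs) and 5742 CPM in flox (64 cells, 697 UMIs), too few cells for a comparison between the libraries. In dendritic cell-like cells the level of 692 CPM in cKO and 502 CPM in flox came mostly from the small cluster 28, led by Ccr7 and Fscn1, genes of migratory dendritic cells. Cluster 28 had 5158 CPM in cKO (32 cells) and 5447 CPM in flox (31 cells), and cluster 0, the other dendritic cell-like cluster, had 109 CPM in cKO and 71.5 CPM in flox. Microglia-like cells had 88.4 CPM in cKO and 60.01 CPM in flox, yet through their number they held 41.3% of all Ccl5 UMIs in cKO and 37.4% in flox.

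Ccl6 and Ccl9, which are ligands of Ccr1 known from rodents, had like profiles. Border-associated macrophage-like cells had Ccl6 at 1220 CPM (1173 to 1269) in cKO and 1331 CPM (1278 to 1387) in flox, and Ccl9 at 1103 CPM (1057 to 1149) in cKO and 1121 CPM (1072 to 1172) in flox. Monocyte or macrophage-like cells had Ccl6 at 411 CPM in cKO and 301 CPM in flox and Ccl9 at 273 CPM in cKO and 236 CPM in flox. Microglia-like cells were lower for both, with Ccl6 at 99.8 CPM in cKO and 96.7 CPM in flox and Ccl9 at 135 CPM in cKO and 120 CPM in flox. Dendritic cell-like cells had Ccl9 at 214 CPM in cKO and 224 CPM in flox, a level whose interval in flox overlapped that of the macrophage-like cells.

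Ccr2, the receptor that lets monocytes leave the marrow and enter inflamed tissue, was highest in other classes than its ligands. It stood at 589 CPM (547 to 633) in cKO and 728 CPM (681 to 778) in flox in dendritic cell-like cells, and at 189 CPM (184 to 194) in cKO and 258 CPM (252 to 264) in flox in monocyte or macrophage-like cells. The unnamed cluster 5 had 724 CPM in cKO and 803 CPM in flox. T or NK cell-like cells had 219 CPM in cKO and 231 CPM in flox. Microglia-like cells had 16.2 CPM in cKO and 10.5 CPM in flox, and border-associated macrophage-like cells 11.3 CPM in cKO and 29.4 CPM in flox. For comparison, oligodendrocyte-like cells had 9.64 CPM in cKO and 8.36 CPM in flox. Mural cell-like cells had 22.1 CPM in cKO and 46.8 CPM in flox.

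**Figure D2:**
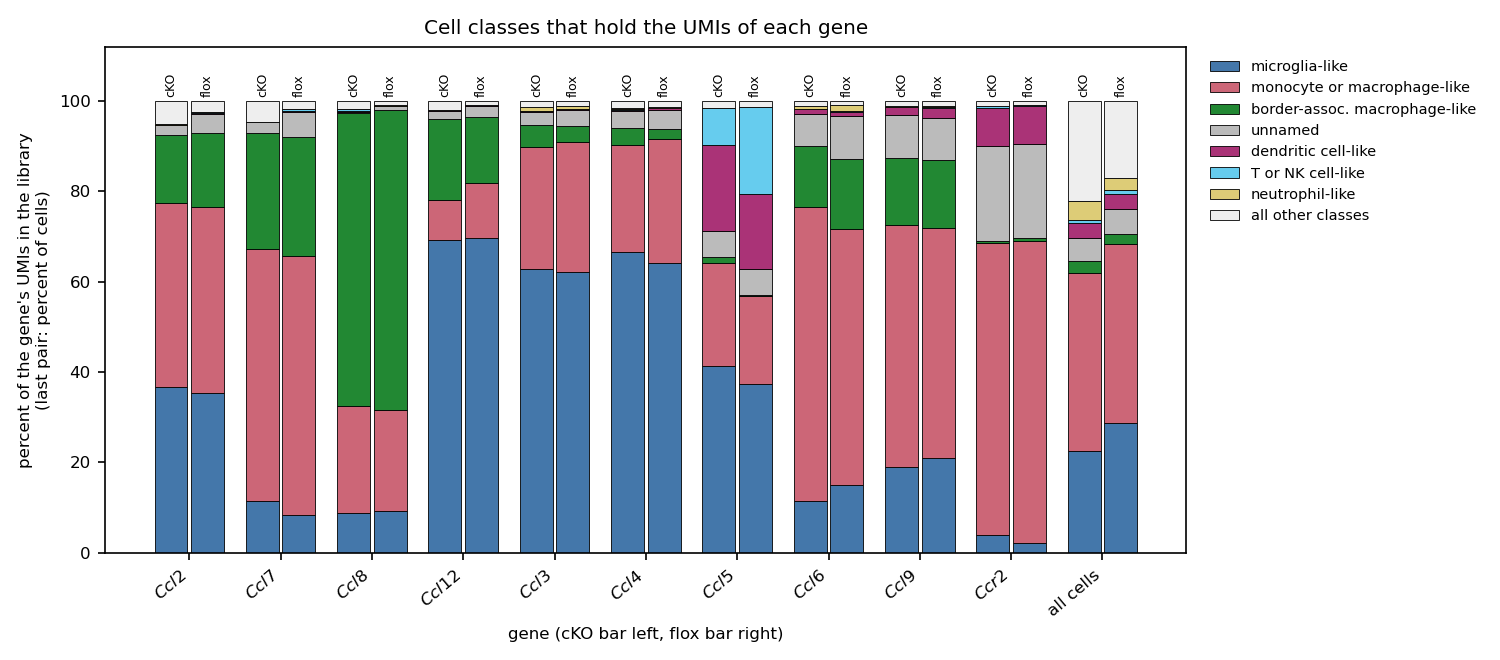
Percent of each gene's UMIs in a library that came from each cell class (cKO bar left and flox bar right of each pair), with the percent of cells in the last pair. Microglia-like cells hold over 60 percent of Ccl3, Ccl4 and Ccl12 in both libraries, border-associated macrophage-like cells hold 65.0% of Ccl8 in cKO and 66.5% in flox, and monocyte or macrophage-like cells and the unnamed cluster hold most of Ccr2.

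The share of a gene's UMIs depends on the number of cells as well as on the level. Monocyte or macrophage-like cells were 39.4% of cKO cells and 39.6% of flox cells. They held 55.8% of Ccl7 UMIs in cKO and 57.3% in flox, 65.3% of Ccl6 UMIs in cKO and 56.8% in flox, and 64.7% of Ccr2 UMIs in cKO and 66.9% in flox. Border-associated macrophage-like cells were 2.62% of cKO and 2.31% of flox cells and held 15.1% of Ccl2 UMIs in cKO and 16.4% in flox, and 25.5% of Ccl7 UMIs in cKO and 26.5% in flox. Fewer cells of a class and less RNA in each cannot be told apart in such totals.

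Within monocyte or macrophage-like cells the genes differed widely over the 5 clusters. Cluster 17, led by the monocyte genes Plac8 and Ifitm6, had the highest Ccr2 at 1663 CPM in cKO and 2026 CPM in flox. Ccr2 was lowest in cluster 3, with Fabp4 and Cd36 among its leading genes, at 38.2 CPM in cKO and 71.7 CPM in flox. Cluster 17 also led in Ccl6, at 1152 CPM in cKO and 1189 CPM in flox, and in Ccl9, at 1334 CPM in cKO and 1453 CPM in flox.

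Ccl2 and Ccl7 were low in that cluster. Ccl2 in cluster 17 was 97.0 CPM in cKO and 157 CPM in flox, the lowest of the 5 clusters, and Ccl7 there was 9.80 CPM in cKO and 55.4 CPM in flox. Cluster 4, led by the interferon-induced genes Slfn4 and Rsad2, had the highest Ccl2 of the 5, at 803 CPM in cKO and 744 CPM in flox, and the highest Ccl7, at 539 CPM in cKO and 643 CPM in flox. The same cluster was also highest in Ccl3, Ccl4, Ccl5 and Ccl12. Ccl12 reached 167 CPM in cKO and 318 CPM in flox there, against 32.8 to 76.6 CPM in the 4 other clusters over both libraries. Cluster 4 was smaller in the cKO library (198 of 2752 cells of the class) than in the flox library (409 of 3192 cells).

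Among microglia-like clusters, cluster 12, led by Gpr84, a receptor induced in activated microglia, was highest in Ccl2, Ccl3, Ccl4, Ccl5 and Ccl12 in both libraries. Its Ccl12 level was 1207 CPM in cKO and 957 CPM in flox, and its Ccl4 level 6102 CPM in cKO and 6605 CPM in flox. Cluster 13, led by the homeostatic genes Siglech and P2ry12, had Ccl2 at 261 CPM in cKO and 232 CPM in flox, about the level of the low-depth cluster 11, while its Ccl3 was still 4007 CPM in cKO and 2978 CPM in flox. Cluster 10, with Lpl and Mmp12 among its leading genes, was lower than clusters 7, 12 and 13 in Ccl3 and Ccl12, at 2309 CPM of Ccl3 in cKO and 2112 CPM in flox. Cluster 7, led by Cxcl10 and genes of dividing cells, lay near the class mean, with Ccl2 at 525 CPM in cKO and 457 CPM in flox.

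**Figure D3:**
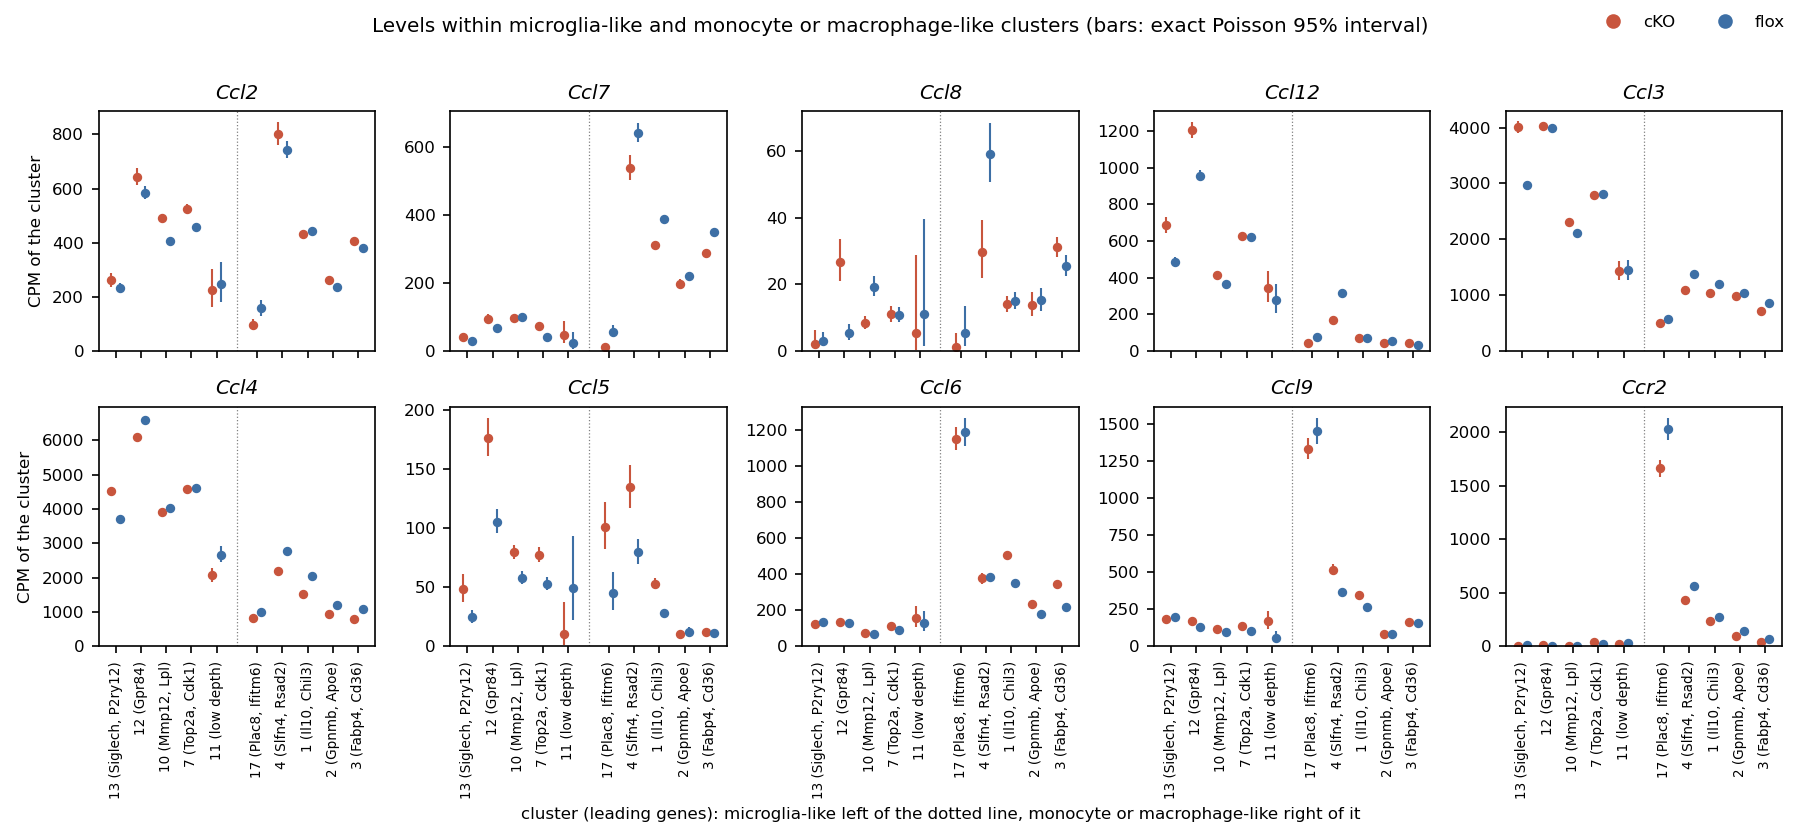
Level of each gene in CPM (vertical axes, from 0) in the 5 microglia-like clusters (left of the dotted line) and the 5 monocyte or macrophage-like clusters (right of it), with cKO left of flox at each cluster and exact Poisson 95% intervals as bars. Ccr2, Ccl6 and Ccl9 peak in cluster 17, Ccl2 and Ccl7 of the macrophage-like clusters peak in cluster 4, and Ccl12 of the microglia-like clusters peaks in cluster 12.

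The share of cells with at least 1 UMI was compared after each cell had been thinned to 1000 UMIs, leaving out shallower cells (84 cKO and 98 flox microglia-like, 50 cKO and 51 flox monocyte or macrophage-like). Choroid plexus epithelial cell-like cells served as background, at a median depth of 5536 UMIs in cKO and 3617 UMIs in flox. Microglia-like cells, with median depths of 13490 UMIs in cKO and 8584 UMIs in flox, had Ccl4 in 88.7% (87.0% to 90.3%) of cKO and 85.0% (83.5% to 86.5%) of flox cells. The background share of Ccl4 was 7.52% in cKO and 22.4% in flox. Unthinned, the microglia-like shares were 95.5% in cKO and 94.6% in flox and the background 39.4% in cKO and 53.9% in flox.

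Ccl12 was found in 33.4% (31.0% to 35.8%) of cKO and 32.5% (30.6% to 34.5%) of flox microglia-like cells after thinning, and in 4.48% (3.73% to 5.33%) of cKO and 6.97% (6.11% to 7.92%) of flox monocyte or macrophage-like cells. The background was 1.504% in cKO and 3.45% in flox. The unthinned Ccl12 shares were 77.2% in cKO and 73.2% in flox for microglia-like cells and 26.96% in cKO and 28.4% in flox for macrophage-like cells, with a background of 5% in cKO and 6.58% in flox. Most microglia-like cells thus had some Ccl12 RNA at full depth, and most macrophage-like cells had none detected.

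Ccl8 was found in 45.4% (37.9% to 53.1%) of cKO and 41.7% (34.4% to 49.2%) of flox border-associated macrophage-like cells, and in at most 2.04% of microglia-like or macrophage-like cells of either library. The choroid plexus background was 1 of 133 cells in cKO (0.752%) and 0 of 58 in flox, and the unthinned shares in the border-associated class were 76.0% in cKO and 71.0% in flox. Median depths there were 11197 UMIs in cKO and 8429 UMIs in flox.

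Ccr2 was found in 37.3% (31.1% to 43.9%) of cKO and 40.9% (34.9% to 47.1%) of flox dendritic cell-like cells, and in 17.7% (16.3% to 19.2%) of cKO and 21.8% (20.3% to 23.3%) of flox monocyte or macrophage-like cells. In microglia-like cells the share was 0.941% (0.516% to 1.57%) in cKO and 0.767% (0.448% to 1.23%) in flox, within the interval of the background share (0.752% in cKO, upper bound 4.12%). The summed level was above that of choroid plexus cells, at 16.2 CPM (lower bound 14.5) in cKO and 10.5 CPM (lower bound 9.23) in flox, against 4.82 CPM (1.77 to 10.5) in cKO and 0 CPM (0 to 7.69) in flox. Cluster 7 held 278 of the 341 Ccr2 UMIs of microglia-like cells in cKO and 141 of 239 in flox. Unthinned, Ccr2 was found in 38.2% of cKO and 45.4% of flox macrophage-like cells, in 4.65% of cKO and 5.23% of flox microglia-like cells, in 2.5% of cKO choroid plexus cells and in 0 of 76 flox ones.

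**Figure D4:**
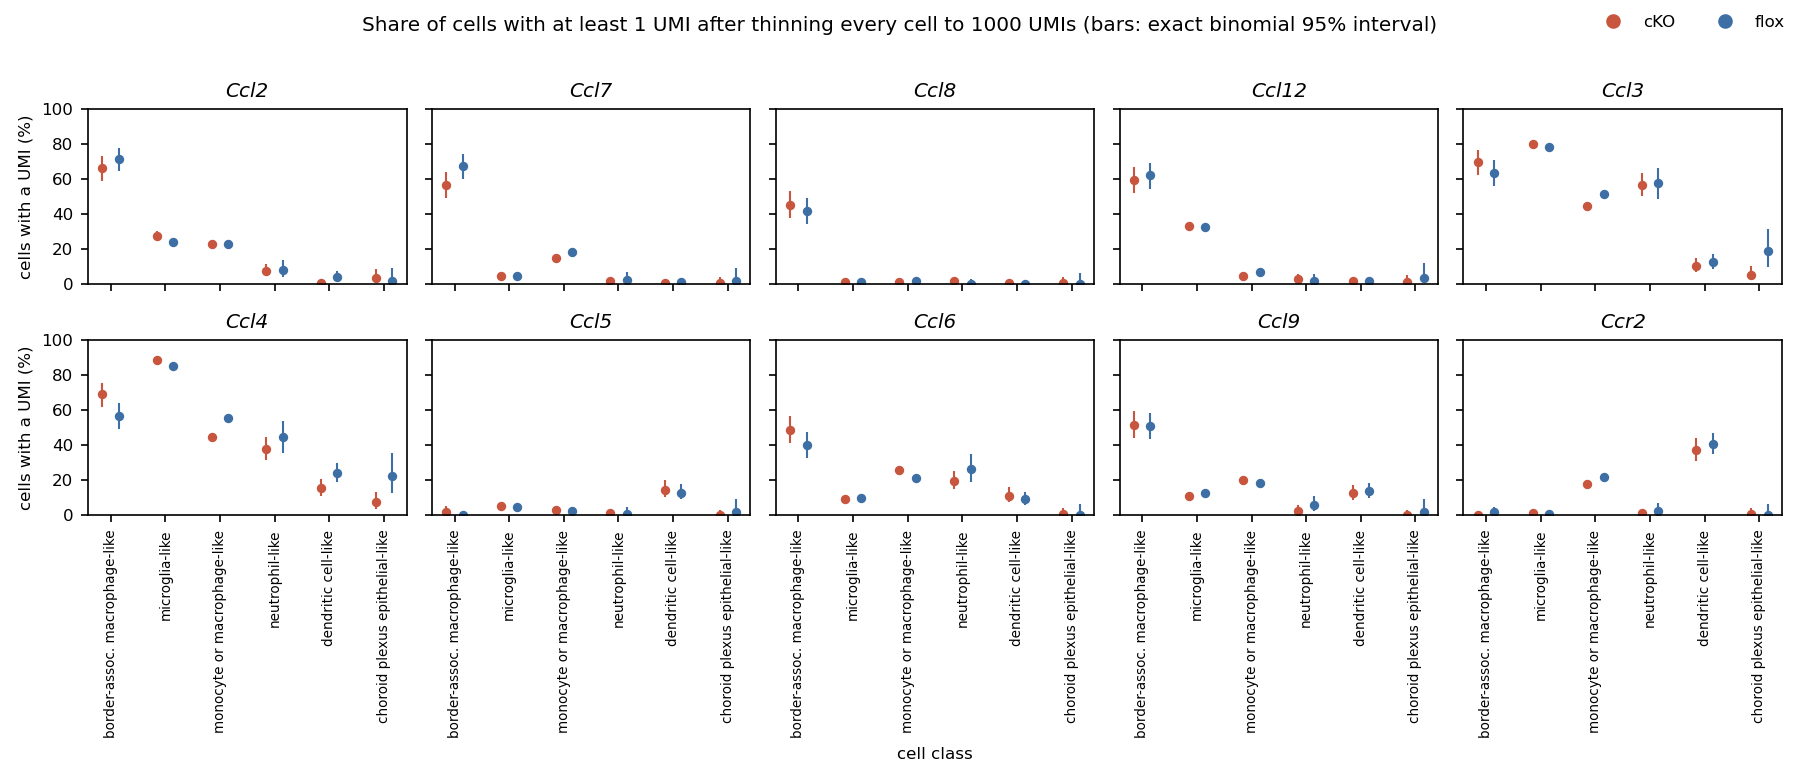
Percent of cells with at least 1 UMI of each gene after every cell was thinned to 1000 UMIs, by cell class, with cKO left of flox and exact binomial 95% intervals as bars. Of these 6 classes, border-associated macrophage-like cells have the highest Ccl8 shares (45.4% in cKO, 41.7% in flox) and the others at most 2.04%, Ccl12 is highest in these and in microglia-like cells, and the choroid plexus class shows the background.

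For several pairs of genes, one was found in a larger share of cells with a UMI of the other than of cells without. Among monocyte or macrophage-like cells thinned to 1000 UMIs, Ccl7 was found in 34.1% (30.4% to 38.0%) of cKO cells with a Ccl2 UMI and in 9.62% of those without. In flox it was found in 39.4% (35.8% to 43.0%) of cells with a Ccl2 UMI and in 12% of those without. Ccl9 was found in 36.2% of cKO cells with a Ccl6 UMI against 14.2% without, and in 34.7% against 13.6% in flox. Cells with a Ccr2 UMI had Ccl9 in 42.2% of cases in cKO and 37.0% in flox, against 15.1% in cKO and 12.8% in flox of cells without one, whereas Ccl2 was about as frequent with Ccr2 (21.5% in cKO, 24.7% in flox) as without (23.3% in cKO, 22.6% in flox). In border-associated macrophage-like cells Ccl7 was likewise more frequent with Ccl2 (69.8% in cKO, 81.4% in flox) than without (31.0% in cKO, 33.3% in flox). With Ccl8 it was not more frequent (53.2% in cKO, 64.0% in flox) than without Ccl8 (60% in cKO, 70.5% in flox). The monocyte or macrophage-like shares pool 5 clusters, of which cluster 17 was highest in both Ccr2 and Ccl9. Shares within clusters were not compared. All are shares of cells of 1 library each, and cells are not replicates.

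Of the thinned Ccl2 UMIs of microglia-like cells, the tenth of cells with most Ccl2 held 61.9% in cKO and 64.3% in flox, and for Ccl12 the share was 56.3% in cKO and 57.0% in flox. For Ccl4 it was 28.6% in cKO and 31.0% in flox, and for Ccl7 in monocyte or macrophage-like cells 81.5% in cKO and 77.6% in flox. These shares also depend on how many UMIs a gene has, so they give no order of the genes.

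The comparison of the libraries asks how chemokine RNA in the infarct differed where Hilpda, a lipid droplet protein that inhibits triglyceride breakdown, was targeted. Each log2 ratio has cKO on top and flox below. To pass the size rule a gene had to differ 2-fold or more, to reach 30 UMIs and 100 CPM in whichever library was higher, and to have an interval without 0. Of 70 ratios (10 genes in the 7 classes that had 100 or more cells in both libraries), 2 passed, both lower in cKO and both in neutrophil-like cells. Microglia-like cells had 0 of 10 genes past the rule (5 were abundant enough to pass), where 0.229% of 1749 measurable genes passed as higher and 3.83% as lower. Monocyte or macrophage-like cells also had 0 of 10 (7 abundant enough), where 0.0572% of genes passed as higher and 3.43% as lower.

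In border-associated macrophage-like cells 0 of 10 passed, with 8 abundant enough (0.323% of genes higher, 3.71% lower). In dendritic cell-like cells 0 of 10 passed, with 6 abundant enough (0.163% higher, 2.87% lower). Endothelial cell-like cells (0.579% higher, 4.79% lower) and oligodendrocyte-like cells (0.145% higher, 3.63% lower) had 0 of 10 past the rule, with only 2 abundant enough in each. In neutrophil-like cells 2 of 10 passed as lower, with 5 abundant enough, where 1.75% of genes passed as higher and 4.17% as lower. In the unnamed cluster 5, 1 of 10 passed as lower, with 9 abundant enough (0.0557% of genes higher, 2.90% lower).

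Ccl6 fell to 358 CPM (153 UMIs) in cKO neutrophil-like cells, against 780 CPM (204 UMIs) in flox neutrophil-like cells (log2 ratio -1.12, -1.44 to -0.81). Ccl9 fell to 53.8 CPM (23 UMIs) in cKO, against 164 CPM (43 UMIs) in flox (-1.61, -2.41 to -0.85). The thinned share of neutrophil-like cells with Ccl6 was 19.6% (14.7% to 25.2%) in cKO and 26.2% (18.8% to 34.8%) in flox, with overlapping intervals, and that of Ccl9 was 2.55% in cKO and 5.56% in flox. These cells were shallow, with a median of 1299 UMIs in cKO and 1067 UMIs in flox. The 13 monocyte or macrophage markers summed in this class to 2304 CPM in cKO, with Vcan at 0, and to 2647 CPM in flox, and 11 neutrophil markers to 22401 CPM in cKO and 30578 CPM in flox. The 12 microglial markers summed there to 2196 CPM in cKO, with Sall1 at 0, and to 2598 CPM in flox. What part RNA of microglia-like or macrophage-like cells had in the result was not tested. With each cell gated on the markers by itself, Ccl9 was at 0.11 and neither gene passed, so the lower Ccl9 level rests on how the class is drawn.

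Ccl4 in neutrophil-like cells was 1000 CPM in cKO and 1963 CPM in flox (-0.97, -1.16 to -0.79), just short of 2-fold. Ccl3 in the same cells was 1833 CPM in cKO and 2295 CPM in flox (-0.32, -0.48 to -0.17). The part of RNA from microglia-like cells, where Ccl3 and Ccl4 were highest, was not tested.

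In monocyte or macrophage-like cells the ratios lay on both sides of 0. The many UMIs of this class make the intervals narrow, so small ratios also exclude 0. The share of all genes with such an interval is not given, so the intervals alone set no gene apart. Ccl4 had a log2 ratio of -0.50 (-0.52 to -0.48), Ccl12 of -0.51 (-0.60 to -0.42), Ccr2 of -0.45 (-0.50 to -0.40), Ccl7 of -0.34 (-0.38 to -0.29) and Ccl3 of -0.27 (-0.29 to -0.24). Ccl6, at 0.45 (0.41 to 0.49), Ccl5, at 0.48 (0.34 to 0.62), and Ccl9, at 0.21 (0.16 to 0.26), were on the other side, and Ccl2 was level at -0.02 (-0.05 to 0.02). All genes measurable in the class had a median of 0.06, with 10% of them below -0.32 and 10% above 0.35. Ccl4, Ccr2 and Ccl7 lay below the lower of these bounds, and Ccl6 above the upper. Ccl12 (57.1 CPM in cKO, 81.1 CPM in flox) and Ccl5 (35.2 CPM in cKO, 25.2 CPM in flox) were too low to count as measurable. The bounds come from more abundant genes and therefore do not place Ccl12 or Ccl5.

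The clusters of the class gave the same side for Ccl3, Ccl4, Ccl7 and Ccr2, each with 5 of 5 intervals below 0. Ccr2 ranged over the clusters from -0.91 to -0.25 and Ccl4 from -0.47 to -0.28. Of the 5 clusters, 3 had a Ccl12 interval below 0 and 1 had an interval above 0. Cluster 2 was among those below, at -0.44 (-0.72 to -0.17). In the class as a whole Ccl12 depended on cluster 4. Without that cluster its ratio in the class was -0.08, against -0.51 with it, and cluster 3 alone had 0.34. In choroid plexus epithelial cell-like cells, where Ccl4 is background, the level was also lower in cKO, as given above. In mural cell-like cells the Ccl4 level was higher in cKO. The part of such background in the macrophage-like difference was not tested.

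**Figure D5:**
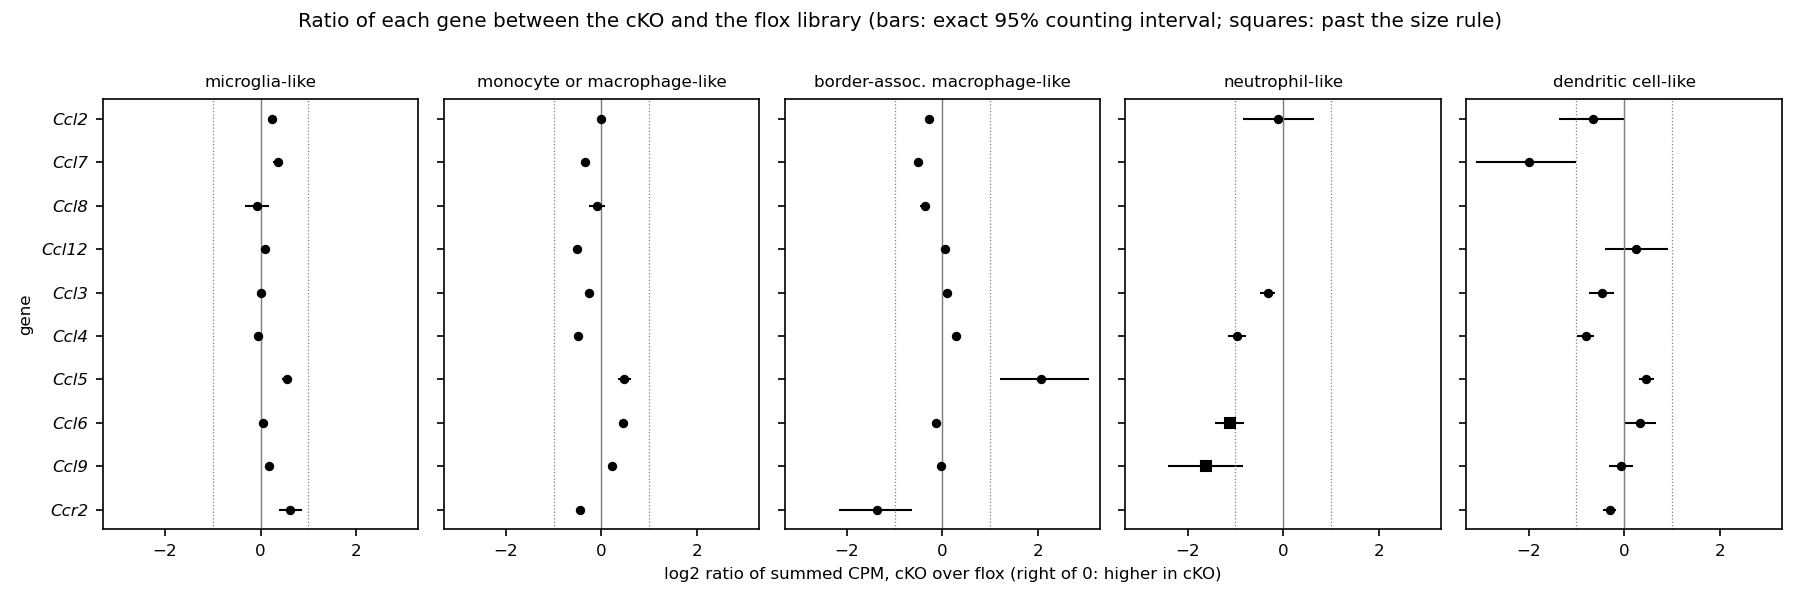
Log2 ratio of the summed level, cKO over flox, of each gene in 5 cell classes, with exact 95% counting intervals as bars, dotted lines at 2-fold and genes with fewer than 30 UMIs in both libraries together left out. Squares mark Ccl6 and Ccl9 in neutrophil-like cells, the ratios past the size rule, and the macrophage-like panel has Ccl4, Ccl12 and Ccr2 near -0.5 beside Ccl5 and Ccl6 near 0.5.

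In microglia-like cells Ccl2 had 0.24 (0.20 to 0.28), Ccl7 0.36 (0.26 to 0.47), Ccl9 0.18 (0.10 to 0.26) and Ccl12 0.10 (0.06 to 0.13), while the interval of Ccl3 (0.01) included 0 and Ccl4 stood at -0.05 (-0.06 to -0.04). With cells thinned to 1000 UMIs, Ccl9 turned to -0.14 and Ccl4 to 0.01. Ccl5 had 0.56 (0.46 to 0.66). Its last 500 transcript bases are richer in G and C (53.6%) than those of the other 9 genes (35.4% to 48.0%), and genes of like composition had a median ratio of 0.15 in this class, which leaves 0.41. The cluster with most microglia-like cells differed between the libraries, being cluster 10 in cKO (537 of 1571 cells) and cluster 13 in flox (651 of 2313 cells). With the clusters weighted alike in both libraries, Ccl2 had 0.19, Ccl12 0.26 and Ccl4 0.00.

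In border-associated macrophage-like cells the MCP ligands Ccl7 (-0.51, -0.57 to -0.45), Ccl8 (-0.37, -0.46 to -0.27) and Ccl2 (-0.27, -0.33 to -0.21) had intervals below 0. Ccl12 (0.06, -0.02 to 0.13) and Ccl9 (-0.02, -0.11 to 0.06) included 0, and Ccl4 had 0.29 (0.23 to 0.35). Ccl4 turned to -0.10 with cells gated one by one, which put 567 cKO and 560 flox cells in the class. The class had 183 cells in cKO and 186 in flox. The thinned shares of cells with Ccl7, 56.9% (49.2% to 64.4%) in cKO and 67.8% (60.4% to 74.5%) in flox, overlapped in their intervals. Ccl5 there rested on 64 UMIs in cKO and 13 in flox and Ccr2 on 23 in cKO and 51 in flox, with thinned shares at or below 1.72% in both libraries for both genes, and these levels were not read as a difference.

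Dendritic cell-like cells had Ccr2 at -0.31 (-0.45 to -0.16; 0.14 against the median of the remaining classes), Ccl4 at -0.80 (-0.98 to -0.62) and Ccl5 at 0.46 (0.31 to 0.61). The Ccl5 ratio was -0.01 when clusters 0 and 28 had the same weight in both libraries. Ccl4 in dendritic cell-like cells was at 335 CPM in cKO, where mural cell-like cells had 382 CPM. In flox it was at 583 CPM (541 to 628), which overlapped astrocyte-like cells (559 CPM, 475 to 653). The part of background in this Ccl4 ratio was not tested. In the unnamed cluster 5, Ccl7 fell to 147 CPM (367 UMIs) in cKO, against 348 CPM (981 UMIs) in flox (-1.24, -1.42 to -1.07). Ccl2 there was 252 CPM in cKO and 411 CPM in flox (-0.70, -0.85 to -0.56), Ccr2 724 CPM in cKO and 803 CPM in flox (-0.15) and Ccl9 566 CPM in cKO and 427 CPM in flox (0.40).

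Over the 7 compared classes Ccl4 had an interval below 0 in 6 and Ccl3 and Ccl7 in 5 each, while Ccl5 had none below 0 and 5 above. The share of all genes with such intervals is not given. Several of these classes hold Ccl3 and Ccl4 at background level only. The 5 for Ccl5 include border-associated macrophage-like cells, not read as a difference above. In endothelial cell-like cells Ccl5 had 38 UMIs in cKO and 13 in flox, and its ratio was -0.27 with equal weight per cell. In dendritic cell-like cells it was -0.01 with the clusters weighted alike. Set against the median ratio over the remaining compared classes, Ccl4 in monocyte or macrophage-like cells had 0.19 and Ccl7 0.70, but that median rests in part on classes with few UMIs of these genes. On the same scale Ccl5 turned to -0.21 in microglia-like, -0.33 in macrophage-like and -0.35 in dendritic cell-like cells, and Ccl7 in border-associated macrophage-like cells to 0.53. Ccl12 (-0.56) and Ccr2 (-0.14) in macrophage-like cells stayed below 0, and Ccl6 had 0.49.

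Other receptors and ligands of the family were described from lists of 12 further CC ligands, 11 CC receptors including Ccr2 and 4 atypical receptors. At 50 CPM or more in a named class of at least 50 cells were 2 further ligands, 5 receptors with Ccr2 among them, and 2 atypical receptors. Ccr1, the receptor of Ccl6 and Ccl9, was highest in neutrophil-like cells at 452 CPM in cKO and 497 CPM in flox and stood at 11.5 CPM in cKO and 10.2 CPM in flox in microglia-like cells.

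Ccr7, which guides dendritic cells to lymph nodes, was at 565 CPM in cKO and 505 CPM in flox in dendritic cell-like cells, where Ccl22, a ligand of Ccr4, was at 96.6 CPM in cKO and 46.0 CPM in flox. Ccl11, a ligand of the eosinophil receptor Ccr3, was seen in mural cell-like cells at 144 CPM in cKO and 192 CPM in flox. Ackr1, which moves chemokines across venules, was at 809 CPM in cKO and 406 CPM in flox in endothelial cell-like cells. Its ratio (0.995, 0.898 to 1.09) was just short of the size rule. Cluster 9 of that class, with Spock2 and Slco1a4 among its leading genes, held 89 of 556 cells in cKO and 224 of 575 in flox. The part of this mix of cells in the Ackr1 ratio was not tested. Ackr3, a scavenger of Cxcl12, was highest in mural cell-like cells among classes of at least 50 cells, at 134 CPM in cKO and 296 CPM in flox.

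Of the CC receptor list, 1 of 11 passed the size rule in a compared class, where at most 5 were abundant enough to pass. Ccrl2, a receptor that binds chemerin without signalling, rose to 603 CPM in cKO border-associated macrophage-like cells, against 262 CPM in flox (1.20, 1.04 to 1.36), where 3 of the 11 were abundant enough and 0.323% of all genes passed as higher. Ccrl2 was more abundant in neutrophil-like cells (4289 CPM in cKO, 3018 CPM in flox) and macrophage-like cells (1554 CPM in cKO, 1361 CPM in flox). Its interval also lay above 0 in microglia-like (0.53), neutrophil-like (0.51) and macrophage-like cells (0.19). It included 0 in dendritic cell-like, endothelial cell-like and oligodendrocyte-like cells. None of the 12 other ligands was abundant enough to pass in the 7 classes. Of the 4 atypical receptors, only Ackr1 in endothelial cell-like cells was. Of 10 genes that act below the receptors, such as Gnai2 and Rac2, 0 passed, with a median ratio of -0.17 in microglia-like cells (7 measurable) and -0.12 in macrophage-like cells (5 measurable). Of 16 genes of NF-kB and of chemokine induction, 0 passed in microglia-like cells (median -0.05 over 13) or macrophage-like cells (median -0.19 over 12). All genes had medians of 0.05 in microglia-like and 0.06 in macrophage-like cells. In dendritic cell-like cells 1 of the 16, Nfkb2, a subunit of NF-kB, fell to 61.2 CPM in cKO, against 150 CPM in flox (-1.30), where 15 of the 16 were abundant enough and 2.87% of all genes passed as lower. Of 6 genes of dividing cells, 0 passed, with 5 abundant enough in microglia-like cells.

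The genes whose levels ran most like each member were taken over 25 class and library sums among 5758 genes, by Pearson's r of log2(CPM + 10). The sums of both libraries share cell types and depth, so r is a description. Ccl2 and Ccl7 were each other's nearest (0.92), and Ccl3 and Ccl4 likewise (0.96), each pair from a single block. Ccl2 was further followed by Plau (0.90) and Dse (0.87), and Ccl7 by Pf4 (0.90) and Dse (0.88). Ccl3 was followed by Fcgr3 (0.95) and P2ry13 (0.94) and Ccl4 by Csf1r (0.93), genes of microglia and macrophages.

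Ccl6 was nearest to Ccl9 (0.93), followed by Slfn2 and Pnpla7 (both 0.92), and Ccl9 to Ms4a6b (0.95), Ms4a6d (0.93) and Ccl6. Ccl8 ran with Fcna (0.97), Cd209f (0.96) and Cd163 (0.96), of which Cd209f and Cd163 were among the markers that named the border-associated class, and Ccl12 with Npl (0.92), Igf1 (0.89) and Abca9 (0.89). Ccl5 ran with H2-Q6 (0.95), H2-Q7 (0.94) and Klrk1 (0.91), and Ccr2 with Ms4a4c (0.94), Runx3 (0.92) and Itgb7 (0.89). P2ry13, Pf4 and Ms4a4c were also naming markers, of the microglia, border-associated macrophage and monocyte or macrophage classes in that order. Against Ccr2, r was 0.14 for Ccl2, 0.26 for Ccl7 and 0.00 for Ccl12, and 0.74 for Ccl5 and 0.58 for Ccl9.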

How the data were processed

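The authors deposited UMI counts for each gene in each cell barcode, as integers that had not been normalized. The submitters' processing notes list CASAVA 1.8, STARsolo, Seurat and the build mm10. Which annotation, counter settings or cell caller they used is not given in the sources. Barcodes were kept with at least 500 UMIs, 200 genes, at most 25% mitochondrial UMIs and at most 5% haemoglobin UMIs (10 cells left out), and without cells marked as doublets by Scrublet (142 in cKO, 210 in flox; scanpy 1.11.5). Leiden clustering (resolution 1, leidenalg 0.10.2) left out 254 genes, the members and related CC genes among them. Clusters were named from markers of 19 classes. In all, 57.6% of cKO and 49.1% of flox macrophage-like cells had the same name when gated cell by cell. Levels have exact Poisson, shares exact Clopper-Pearson and ratios exact conditional intervals.

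Genes named were the 10 members, list genes past the size rule in microglia-like or macrophage-like cells (none), other CC ligands and receptors at 50 CPM or more, and the 3 genes most like each member. Nfkb2, the classes and clusters singled out, the naming thresholds, the haemoglobin limit and 4 added alternatives were chosen after values were seen. Members and lists were chosen with earlier results of these data known. The size rule was tested on simulated counts. Alternatives covered the clustering resolution, cell-by-cell gating, doublets, mitochondrial limit, thinning, weighting, scaling and the limits of the size rule. Trimmed-mean (TMM) scaling used edgeR 4.0.16 in R 4.3.3 as an alternative. Some items that fall under the naming rule are not reported here.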

Additional observations from a re-analysis of the deposited data

Results flagged for a closer look

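In 3 genes the ratio of cKO over flox lay on opposite sides of 0 in microglia-like and in monocyte or macrophage-like cells, with both intervals excluding 0. The difference was not tested, since each class has 1 library per group. Ccl7 had a log2 ratio of 0.365 in microglia-like cells (82.4 CPM in cKO, 64.0 CPM in flox) and of -0.336 in macrophage-like cells (287 CPM in cKO, 362 CPM in flox). Ccl12 had 0.0981 in microglia-like cells (610 CPM in cKO, 570 CPM in flox) and -0.507 in macrophage-like cells (57.1 CPM in cKO, 81.1 CPM in flox), where it was -0.08 without cluster 4. Ccr2 had 0.622 in microglia-like cells and -0.448 in macrophage-like cells. Its level in microglia-like cells was 16.2 CPM in cKO and 10.5 CPM in flox, with 278 of 341 UMIs in cKO and 141 of 239 in flox in cluster 7, and the ratio there was -0.50 at resolution 2 and -0.84 with cells gated one by one.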

How the results depend on the processing

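No paired analysis was possible because each group has 1 library, and no library could be left out for the same reason. Of 61 ratios checked, 42 had an interval excluding 0, of which 22 kept their sign under every alternative and 9 changed it only relative to the other compared classes. The share of all genes with such an interval is not given. Ccl9 in neutrophil-like cells reversed to 0.11 with cells gated one by one.

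Counts of genes past the size rule moved in these cases. With cells gated one by one, the count lower in cKO was 0 in neutrophil-like and 1 in border-associated macrophage-like cells. With at least 10 UMIs and no CPM minimum it was 1 in border-associated macrophage-like, 1 in dendritic cell-like, 2 in endothelial cell-like and 3 in oligodendrocyte-like cells, and 1 gene was higher in cKO in border-associated macrophage-like and 1 in endothelial cell-like cells. A minimum of 100 UMIs left 1 in neutrophil-like cells. A 1.5-fold limit gave 1 lower in dendritic cell-like and 2 in oligodendrocyte-like cells. Resolution 2 gave 1 lower in border-associated macrophage-like cells. In endothelial cell-like cells 2 were lower with doublets kept and 1 after thinning to 1000 UMIs. The cause was not tested. The neutrophil-like class has no cells left without low-depth clusters, so that setting gave no value there.

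Depth limits the rarer genes: Ccl8 and Ccr2 in microglia-like cells, Ccl5 in border-associated macrophage-like cells and Ccl9 in neutrophil-like cells rest on few UMIs per cell. Class names are rebuilt from markers, and many macrophage-like cells changed class when gated singly.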
